A study of Mus musculus with 2207 samples.

Results

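The oligodendrocyte nuclei of the mouse cortex were described here, taken as all nuclei whose label gave the cell type oligodendrocyte. They made up 73 of 362, 71 of 368, 69 of 370, 46 of 371, 71 of 366 and 67 of 370 labelled nuclei in the 6 pools, the others being neurons (1664 in all) and microglia (16 to 36 in a pool). Nuclei of 14-week-old C57BL/6 mice were sorted singly into plates and their total RNA was sequenced by RamDA-seq, a random-primed full-length method, and the authors deposited reads per kilobase of gene scaled to the mapped reads of the nucleus (RPKM). The sample labels list 2 doses of tamoxifen (100 mg/kg) and an age of 3 weeks for all mice. The paper separates the doses by an interval, so they did not both fall at this age. In its text, the paper names tamoxifen for the nuclei of the *CamKII-CreER* series, described below, but not for those of the other series. The mice of the 96-well plates belong to that other series, and for them tamoxifen rests on the labels alone. The 96-well plates held wild type nuclei (*Ehmt1*+/+, called WT) with 73 oligodendrocytes and *Ehmt1*delta/+ nuclei, lacking 1 copy of the gene for the histone methyltransferase GLP, with 71. By the assignment used here, every mouse of the 384-well plates carried the *Ehmt1* iTg transgene, which makes tagged GLP after Cre recombination. These plates held *Ehmt1*+/+ mice without Cre (WT, 69 oligodendrocytes), *Ehmt1*delta/+ mice without Cre (46), *Ehmt1*+/+ mice with *CamKII-CreER* (iTg, 71) and *Ehmt1*delta/+ mice with *CamKII-CreER* (*Ehmt1*delta/+; iTg, 67). *CamKII-CreER* is driven in forebrain neurons, so oligodendrocytes of the latter mice carry the transgenes without being the cells in which the promoter is known to act. For this series the paper describes every group as carrying *CamKII-CreER* and names the *Ehmt1* iTg transgene only for the iTg groups. Both points differ from the assignment used here. On the paper's description, the factor called *CamKII-CreER* below would be the *Ehmt1* iTg transgene. Each genotype and plate format is 1 pool of 3 mice, nuclei cannot be assigned to single mice, and the 6 pools, named in the order above, are the samples of every comparison.

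Oligodendrocytes wrap axons of the central nervous system in myelin, a stack of membrane rich in cholesterol and galactolipids and held together by a small set of abundant proteins. They arise from dividing precursor cells that carry the PDGF receptor alpha and the NG2 proteoglycan, pass through a short newly formed stage and then switch on the myelin genes under the transcription factors OLIG2, SOX10 and MYRF. Mature cells also feed axons with lactate, buffer potassium and store iron.

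Oligodendrocytes made up 20.2% of the nuclei (exact 95% interval 16.2 to 24.7) in the WT pool and 19.3% (15.4 to 23.7) in the *Ehmt1*delta/+ pool of the 96-well plates. Among the 384-well pools the share was 18.6% (14.8 to 23), 12.4% (9.22 to 16.2), 19.4% (15.5 to 23.8) and 18.1% (14.3 to 22.4). The *Ehmt1*delta/+ pool of the 384-well plates had the lowest share, and its interval overlapped those of the other pools. These intervals cover counting error only, and with 1 pool a group no test between groups of shares was made.

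The formats differed in depth. Oligodendrocytes of the 96-well plates had median recovered read totals of 441700 and 478607 and median counts of 9681 and 9190 genes above 0, and those of the 384-well plates had medians of 49635 to 54877 reads and 4586 to 5859 genes. Neurons had medians of 323273 to 397880 reads in the 384-well plates and 343804 and 352623 in the 96-well plates, so shares of nuclei above 0 favoured neurons in the 384-well plates. The formats were normalized in separate tables, and levels set across them are given side by side without a test. RNA of other cell types was low but not absent in the oligodendrocyte nuclei. Their summed level of 12 neuron markers was 108.3 RPKM in WT and 28.5 RPKM in *Ehmt1*delta/+ of the 96-well plates and 17.7 to 27.96 RPKM in the 384-well plates, against 1315 to 1535 RPKM in neurons. *Snap25*, a synaptic vesicle fusion protein gene, was at 41.3 and 8.88 RPKM in the 96-well pools and 3.93, 1.30, 0.651 and 5.41 RPKM in the 384-well pools in oligodendrocytes and at 1.22 to 51.7 RPKM in microglia of the same pools. The 12 microglia markers summed to 4.19 to 13.8 RPKM in oligodendrocytes against 3197 to 4925 RPKM in microglia. Of 12 astrocyte markers, which summed to 13.6 to 28.8 RPKM, *Aqp4*, *Gfap* and *Gja1* were at 0.729 RPKM or below in every pool, whereas the glutamate transporter gene *Slc1a3* was at 7.92 to 11.7 RPKM and above 0 in 45.7 to 67.1% of the oligodendrocyte nuclei. The 14 endothelial and mural markers summed to 0.119 to 1.1 RPKM. Without the 10% of oligodendrocyte nuclei richest in neuron marker reads, the number of genes that set the cells apart was 816 in place of 803 (96-well) and 511 in place of 516 (384-well), and the part of this RNA in other results was not tested.

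The defining markers were high in the nuclei labelled oligodendrocyte and far lower in the others. *Mbp*, the gene of myelin basic protein, was at 809.8 and 852.1 RPKM in the 96-well pools and 699.5, 726.5, 651.7 and 955.2 RPKM in the 384-well pools in oligodendrocytes, at 4.05 to 8.32 RPKM in neurons and at 2.98 to 7.62 RPKM in microglia. *Mog*, a protein of the outer myelin surface (chr17:37010743-37023398 in the mm10 build), was at 348.3 and 280.99 RPKM in the 96-well pools and 277.7, 309.9, 290.6 and 278.1 RPKM in the 384-well pools, against 0.402 to 0.775 RPKM in neurons and 0 to 1.08 RPKM in microglia. Both were high in all 6 pools with no overlap with the other cell types. *Olig1*, a basic helix-loop-helix factor of the lineage (chr16:91269772-91271933), was at 48.01 and 47.2 RPKM in the 96-well pools and 39.1, 44.9, 44.6 and 67.5 RPKM in the 384-well pools, and *Sox10*, the factor that opens myelin genes, at 71.7 and 79.3 RPKM in the 96-well pools and 275.9, 270.99, 199.2 and 171.7 RPKM in the 384-well pools. Neurons had 0.116 to 0.602 RPKM of *Olig1* and 0.105 to 0.984 RPKM of *Sox10*, and microglia had 0 to 1.56 RPKM and 0 to 0.670 RPKM. All 4 markers were above 0 together in 73 of 73 and 71 of 71 oligodendrocytes of the 96-well plates and in 56 of 69, 34 of 46, 56 of 71 and 61 of 67 of the 384-well plates, where *Olig1* was the marker most often at 0. The same was true of 0 or 1 neuron per pool and of no microglia nucleus. No p-value is given for any difference between cell types, because the authors set the cell types from these same nuclei.

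**Figure D1:**
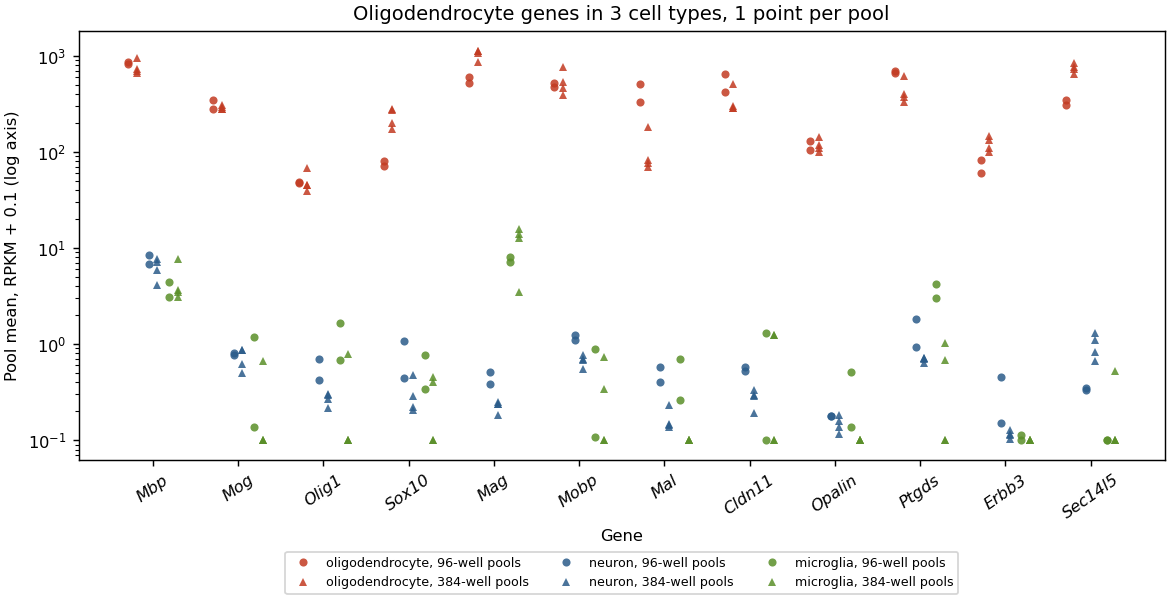
Mean RPKM plus 0.1 on a log axis in oligodendrocyte (red), neuron (blue) and microglia (green) nuclei for 12 genes, with 1 point per pool, circles for the 96-well and triangles for the 384-well pools. The oligodendrocyte points lie above those of both other cell types for every gene. The oligodendrocyte points of *Mag*, *Mal*, *Sox10*, *Sec14l5*, *Erbb3* and *Ptgds* are split by plate format.

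A gene was called leading in a plate format when its mean RPKM in oligodendrocytes was at least 4 times that of neurons and of microglia in every pool of the format (on values plus 0.1 RPKM) and it was above 0 in at least 25% of oligodendrocyte nuclei of every pool. In the 96-well plates 803 of 12860 genes that passed the filter led, which is 6.24%, and in the 384-well plates 516 of 5990, which is 8.61%. The formats shared 480 leading genes, which are 59.8% of the first list and 93% of the second. Genes of known proteins made up 413 and 333 of the lists as annotated by identical identifier version, and 63.4% of 713 and 59.4% of 448 leading genes with a position overlapped another gene, so that part of their reads cannot be assigned without strand. The genes with the highest score, the lowest log2 ratio to either cell type over the pools of a format, were *Sec14l5* at 9.85, *Mal* at 9.50, *Cldn11* at 8.94, *Mobp* at 8.73 and *Cdh19*, a cadherin gene of glia, at 8.52 in the 96-well plates. For the other format they were *Cmtm5* at 9.95, the neuregulin receptor gene *Erbb3* at 9.87, *Opalin* at 9.49, *Gjc3* at 9.44 and *Sec14l5* at 9.32. *Sec14l5*, of the Sec14-like lipid binding family, was at 306.3 and 349.1 RPKM in the 96-well pools and 722.9, 755.1, 830.8 and 646.3 RPKM in the 384-well pools, a level in the range of the myelin genes. Other genes of high score included *Fbxw15* at 65.3, 78.2, 38.2, 28.3, 19.3 and 53.6 RPKM in pool order, *Cyp2j12*, a cytochrome P450 gene, at 37.3, 50.4, 30.7, 38.8, 38.8 and 51.3 RPKM, and *Olfml1* at 45.8, 39.3, 64.4, 58.5, 45.7 and 51.1 RPKM, all 3 at 0.140 RPKM or below in neurons and at 0 in microglia of every pool.

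For 3 leading genes the 250 bases before the start that RefSeq lists first are shown, since the transcription factor SOX10 also led and its family binds the letters ACAAAG or ACAATG on either strand. The sequences are from RefSeq on GRCm38.p6 and are written 5′ to 3′ on the strand of the gene with matches in capitals. The window of *Mobp* (chr9:120149492-120149741, plus strand) held 6 matches and ends inside the gene as GENCODE, from which the other gene positions here are taken, places it. Of the other windows, that of *Opalin* (chr19:41077114-41077363, minus strand) held 1 match and that of *Mog* (chr17:37023399-37023648, minus strand) held 0.
Mobp: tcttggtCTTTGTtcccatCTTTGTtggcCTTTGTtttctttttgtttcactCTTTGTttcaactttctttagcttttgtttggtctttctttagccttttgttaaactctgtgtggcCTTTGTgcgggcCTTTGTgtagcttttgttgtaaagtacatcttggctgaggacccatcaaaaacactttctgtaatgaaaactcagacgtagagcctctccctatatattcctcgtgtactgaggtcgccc
Opalin: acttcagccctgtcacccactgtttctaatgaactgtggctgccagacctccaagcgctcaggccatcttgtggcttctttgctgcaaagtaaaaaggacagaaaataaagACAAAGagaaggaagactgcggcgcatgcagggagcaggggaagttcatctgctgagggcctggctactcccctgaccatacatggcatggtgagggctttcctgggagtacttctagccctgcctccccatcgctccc
Mog: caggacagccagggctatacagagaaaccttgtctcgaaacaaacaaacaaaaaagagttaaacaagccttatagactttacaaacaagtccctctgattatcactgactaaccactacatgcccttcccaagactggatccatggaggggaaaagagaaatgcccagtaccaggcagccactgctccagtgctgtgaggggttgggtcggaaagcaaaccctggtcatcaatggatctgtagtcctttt
These letters were not commoner at leading genes. They were found in 24% of the 20293 windows of all genes with a promoter entry, in 23.1% of 442 windows of genes leading in the 96-well plates and in 21.6% of 343 in the 384-well plates. The letters CTGGCAC or CTGGTAC, known as the core of MYRF sites, were found in 5.71% of all windows, 9.05% of the 96-well leading genes and 7.87% of the 384-well leading genes. The E-box letters CAGCTG or CATATG, which OLIG factors can bind, were found in 15.1% of all windows and in 14.3% and 14.6% of the leading genes. A match describes letters and is no evidence of binding, and no test was made on these shares.

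Of 20 myelin protein genes, 19 led in both formats, where 6.24% (96-well) and 8.61% (384-well) of all genes that passed the filter led. The median of their log2 ratio to neurons was 7.70 (96-well) and 7.35 (384-well), against 0.11 and 0.23 over all genes that passed the filter. *Mag*, the adhesion molecule of the inner myelin face, was at 601.3 and 520.5 RPKM in the 96-well pools and 1056, 1109, 1124 and 853.1 RPKM in the 384-well pools, higher in every 384-well pool than in both 96-well pools. *Mobp*, of compact myelin (chr9:120149707-120181484), was at 474.7 and 523.3 RPKM in the 96-well pools and 385.4, 458.4, 535.9 and 755.7 RPKM in the 384-well pools, and *Cldn11*, the tight junction claudin of myelin, at 641.9 and 423.1 RPKM in the 96-well pools and 286.7, 283.4, 298.4 and 508.1 RPKM in the 384-well pools. *Mal*, a raft protein gene (chr2:127633226-127656695), was at 508.0 and 327.8 RPKM in the 96-well pools and 77.1, 82.97, 69.2 and 178.7 RPKM in the 384-well pools, so it was lower in every 384-well pool than in both 96-well pools. *Cnp*, a cyclic nucleotide phosphodiesterase of the myelin cytoplasm, was at 110.8, 96.2, 163.7, 149.3, 162.2 and 148.2 RPKM, and *Opalin* at 130.6, 103.3, 109.3, 141.2, 98.5 and 118.3 RPKM, in pool order. *Hapln2*, a link protein of the node matrix, was at 261.95, 332.8, 629.6, 609.2, 709.7 and 521.1 RPKM, above in the 384-well pools what it was in the 96-well pools. *Evi2a* was the member that did not lead, with 12.4 to 42.4 RPKM in oligodendrocytes, 1.51 to 5.70 RPKM in neurons and 2.06 to 19.8 RPKM in microglia. The 17 members with a known length, which leave out *Mbp*, *Opalin* and *Ndrg1*, took 3.09% ± 0.775 and 2.57% ± 0.722 (SD over 73 and 71 nuclei) of the recovered reads of an oligodendrocyte in the 96-well plates and means of 2.44% to 2.57% in the 384-well plates, against means of 0.0915% to 0.131% in neurons.

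**Figure D2:**
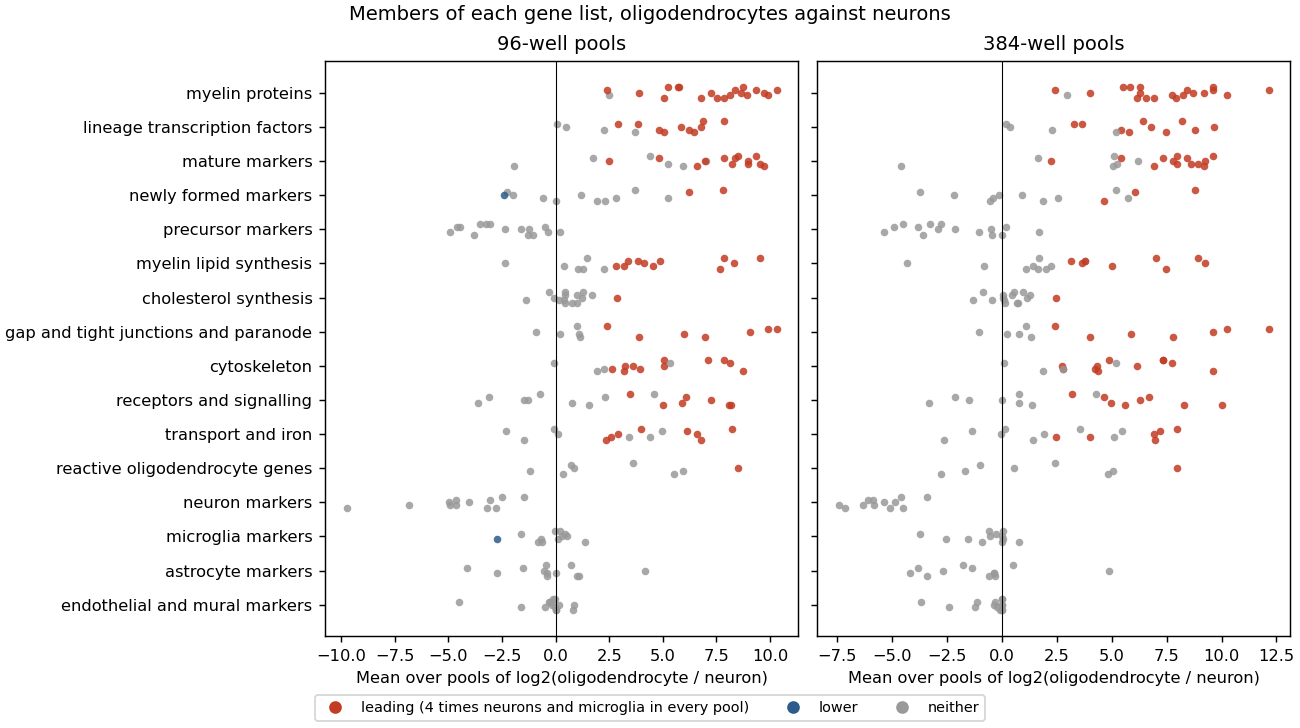
Mean over the pools of a plate format of the log2 ratio of RPKM plus 0.1 in oligodendrocytes to that in neurons, with 1 point per gene of each list, red where the gene led, blue where it was lower and grey otherwise. The myelin protein genes lie to the right of 0 in both formats, the cholesterol synthesis genes lie around 0, and the neuron markers lie to the left.

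Among 14 transcription factor genes of the lineage, 10 led in both formats, with a median log2 ratio to neurons of 4.94 (96-well) and 5.59 (384-well). Over all genes that passed the filter this median was 0.11 and 0.23, and 6.24% (96-well) and 8.61% (384-well) of them led. *Myrf*, the factor that turns on myelin genes after cell cycle exit, was at 162.4 and 161.97 RPKM in the 96-well pools and 258.6, 241.9, 257.4 and 249.6 RPKM in the 384-well pools and above 0 in every nucleus. *Olig2* was at 40.2, 46.9, 38.3, 52.4, 55.5 and 49.6 RPKM and *Sox8*, the relative of *Sox10*, at 33.03, 24.4, 69.8, 72.6, 75.9 and 60.03 RPKM in pool order. *Zfp536*, a zinc finger gene, was at 57.6 to 74.2 RPKM and *St18*, a zinc finger gene, at 33.1 to 59.2 RPKM. *Nkx6-2*, a homeobox gene of mature oligodendrocytes, was at 26.6 to 66.4 RPKM, and *Nkx2-2*, which acts at the start of differentiation, at 4.57 to 7.19 RPKM. The 4 that did not lead were *Tcf7l2*, *Zeb2*, *Yy1* and *Carm1*. *Tcf7l2*, a Wnt effector of newly formed oligodendrocytes, was at 2.79, 3.95, 6.32, 3.58, 9.49 and 8.69 RPKM in oligodendrocytes and at 6.41 to 22.9 RPKM in microglia. *Zeb2*, a SMAD-binding repressor, was at 46.1 to 81.9 RPKM in oligodendrocytes and at 26.7 to 57.97 RPKM in microglia.

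RNA was also counted over small RNA genes, which RamDA-seq libraries do not size-select, so the values are of RNA over the hairpin locus and not of the mature miRNA. The mature sequences of the loci with the oligodendrocyte miRNAs miR-219 and miR-338, known to promote differentiation, are given from RefSeq on GRCm38.p6 with the seed (bases 2 to 8) in capitals. The loci were chosen after their values were seen.
mmu-miR-219a-5p (chr2:29845689-29845709, minus strand): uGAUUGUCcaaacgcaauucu
mmu-miR-338-3p (chr11:120014781-120014802, minus strand): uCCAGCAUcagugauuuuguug
The *Mir219a-2* locus was at 60.05 and 53.7 RPKM in the 96-well pools and 227.02, 96.3, 89.1 and 85.7 RPKM in the 384-well pools in oligodendrocytes, 1.42 to 2.74 RPKM in neurons and 0 to 2.60 RPKM in microglia, and led in both formats. The *Mir338* locus was at 20.95 and 21.97 RPKM in the 96-well pools and 73.98, 63.4, 47.99 and 19.7 RPKM in the 384-well pools. *Mir219a-2* overlaps *Mir219b* on the other strand (50.4 to 171.9 RPKM), and *Mir338* lies within *Aatk*, a kinase gene that was itself at 246.8, 272.7, 634.4, 635.3, 603.6 and 507.3 RPKM in pool order, so reads of host and hairpin cannot be told apart.

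The genes that build myelin lipid led in part. Of 17 members of the lipid list, 11 led (96-well) and 8 (384-well). *Ugt8a*, which makes galactosylceramide, was at 208.6 and 204.9 RPKM in the 96-well pools and 52.1, 46.4, 50.02 and 68.8 RPKM in the 384-well pools, and *Fa2h*, which adds the 2-hydroxyl group to its fatty acid, at 132.03 and 98.9 RPKM in the 96-well pools and 179.1, 164.3, 213.7 and 163.1 RPKM in the 384-well pools. *Abca2*, a lipid transporter gene, was at 464.8 and 495.6 RPKM in the 96-well pools and 896.9, 886.0, 928.3 and 835.3 RPKM in the 384-well pools, and *Scd2*, a fatty acid desaturase gene, at 740.8 and 466.9 RPKM in the 96-well pools and 140.96, 113.5, 117.8 and 241.5 RPKM in the 384-well pools. *Aspa*, which frees acetate from N-acetylaspartate, was at 43.3 to 132.2 RPKM against 0.00639 to 0.0879 RPKM in neurons. *Fads2* was at 0 to 4.24 RPKM in oligodendrocytes and 6.17 to 9.75 RPKM in neurons. Of 15 cholesterol synthesis genes 1 led in each format, where 6.24% (96-well) and 8.61% (384-well) of all genes that passed the filter led. It was *Insig1*, the sterol sensor partner, at 50.1, 38.5, 28.8, 26.3, 31.3 and 36.8 RPKM in pool order. The median log2 ratio to neurons of this list was 0.46 and 0.48 in the formats, against 0.11 and 0.23 over all genes. Its median log2 ratio to microglia was 2.41 and 2.90, against −0.03 and 0.29 over all genes. *Srebf2*, the sterol-response factor, was at 27.2 to 56.1 RPKM in oligodendrocytes and 21.2 to 31.7 RPKM in neurons.

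Junction, cytoskeleton and receptor genes also set the cells apart. Of 12 junction and paranode genes 7 led in both formats, where 6.24% (96-well) and 8.61% (384-well) of all genes that passed the filter led. Among them were the connexin genes *Gjc3* at 421.9, 447.9, 118.6, 134.5, 125.2 and 212.4 RPKM and *Gjb1* at 26.1 to 39.98 RPKM. *Nfasc* and *Cntn2*, adhesion proteins of the node region, were at 254.6 to 394.8 RPKM and 247.8 to 538.8 RPKM in oligodendrocytes and also at 47.5 to 68.9 RPKM and 16.9 to 31.96 RPKM in neurons. Of 15 cytoskeleton genes found 11 led in both formats. They included *Sept4* at 263.9 to 533.3 RPKM, *Tubb4a*, a tubulin gene mutated in a white matter disease, at 223.9, 153.4, 614.0, 555.5, 540.0 and 392.0 RPKM, *Tppp*, a tubulin polymerization protein gene, at 85.7 to 120.96 RPKM and *Gsn*, the actin-severing gelsolin gene, at 91.4 to 141.6 RPKM. *Dock10* did not lead because microglia also had it, at 47.1 to 67.5 RPKM against 84.5 to 122.6 RPKM in oligodendrocytes.

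Of 16 receptor and signalling genes 7 led (96-well) and 8 (384-well), against 6.24% and 8.61% of all genes that passed the filter. *Erbb3* (chr10:128567523-128589652) was at 59.9 and 82.1 RPKM in the 96-well pools and 108.9, 146.2, 133.8 and 98.4 RPKM in the 384-well pools, against 0.00269 to 0.357 RPKM in neurons. *Fgfr2*, an FGF receptor gene, was at 59.99 to 88.2 RPKM, *Gpr37*, a brake on differentiation, at 32.2 to 113.7 RPKM, *Prr5l* at 67.8 to 91.6 RPKM and *Lpar1*, a lysophosphatidic acid receptor gene, at 15.5 to 58.6 RPKM. *Il1rap*, a subunit of interleukin 1 and interleukin 33 receptors, was at 13.04 to 34.7 RPKM and did not lead, and *Il1r1* was listed at 0 in every pool. *Casp1*, the inflammasome protease gene, was above 0 in at most 1.37% of oligodendrocyte nuclei of a pool, at 0 to 0.0169 RPKM.

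Of 15 transport and iron genes 8 led (96-well) and 6 (384-well), against 6.24% and 8.61% of all genes that passed the filter. *Trf*, the transferrin gene, was at 325.4 and 267.3 RPKM in the 96-well pools and 258.1, 253.7, 283.96 and 225.6 RPKM in the 384-well pools against 0.663 to 1.15 RPKM in neurons, and *Car2*, carbonic anhydrase 2, at 255.1 and 230.1 RPKM in the 96-well pools and 232.4, 145.5, 159.5 and 155.6 RPKM in the 384-well pools. *Fth1*, ferritin heavy chain, was at 122.9 to 183.5 RPKM in oligodendrocytes against 8.84 to 20.1 RPKM in neurons and 12.2 to 59.5 RPKM in microglia, whereas the transferrin receptor gene *Tfrc* was at 0.995 to 7.91 RPKM in oligodendrocytes and 9.31 to 21.3 RPKM in neurons. *Kcna1* and *Kcnj10*, potassium channel genes, were at 163.8 to 280.5 RPKM and 14.7 to 68.1 RPKM. *Slc16a1*, the lactate transporter MCT1, was at 20.5, 11.7, 4.70, 3.22, 1.89 and 5.35 RPKM in pool order, and led in the 96-well plates. Of 8 genes known from reactive oligodendrocytes 1 led, *Il33*, a nuclear cytokine gene, at 90.5 and 120.99 RPKM in the 96-well pools and 36.5, 38.9, 29.6 and 83.2 RPKM in the 384-well pools. Only 5 (96-well) and 2 (384-well) of the 8 passed the filter, so the count of 1 is no result about the list. *C4b*, a complement gene, was at 36.8, 11.4, 16.9, 25.2, 13.98 and 26.5 RPKM and above 0 in 14.1 to 35.8% of the nuclei, and *Serpina3n* was above 0 in at most 2.90%. *B2m*, the light chain of MHC class I, was at 27.5, 3.63, 1.26, 0.564, 0.312 and 1.73 RPKM, so the WT pool of the 96-well plates stood above the others.

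Genes lower in oligodendrocytes than in both other cell types were picked by a filter on the other cells. A gene was called lower when it was at least 4 times below neurons and microglia in every pool of a format and above 0 in at least 25% of the neurons and of the microglia of every pool. This held for 496 of 11888 genes in the 96-well plates (4.17%) and for 4.7% of 4783 genes in the 384-well plates, and the shared genes were 38.7% and 85.3% of the lists. These counts cannot be set beside those of leading genes, whose filter is on oligodendrocytes. Without either filter 957 genes were lower and 1007 led in the 96-well plates, and 456 were lower and 717 led in the 384-well plates. *Adamts10*, a secreted metalloprotease gene, was at 0 in 4 pools and at 0.00441 and 0.0630 RPKM in the others, against 13.4 to 31.9 RPKM in neurons and 12.4 to 34.6 RPKM in microglia. The semaphorin co-receptor genes *Nrp1* and *Plxna4* were at 0 to 0.0516 RPKM and 0 to 0.794 RPKM in oligodendrocytes. Neurons had 4.36 to 8.45 RPKM and 22.8 to 28.3 RPKM of them and microglia 3.14 to 15.2 RPKM and 18.4 to 41.9 RPKM. The antisense genes *Plxna4os1*, *Plxna4os2* and *Plxna4os3* were also among the named lower genes and share their locus with *Plxna4*. *Lrp1*, an endocytic lipoprotein receptor gene, was at 1.73 and 1.71 RPKM in the 96-well pools and 1.60, 0.320, 1.30 and 1.45 RPKM in the 384-well pools, against 64.05 to 128.8 RPKM in neurons and 115.8 to 351.2 RPKM in microglia. *Rreb1*, a zinc finger gene, was at 0 to 0.154 RPKM against 11.97 to 24.7 RPKM and 30.1 to 50.6 RPKM. *Coro1a* and *Fmnl1*, actin regulators, were at 0 to 2.05 RPKM and 0.141 to 1.65 RPKM in oligodendrocytes, 16.7 to 38.6 RPKM and 28.6 to 69.7 RPKM in neurons and 63.8 to 160.96 RPKM and 50.5 to 154.3 RPKM in microglia.

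Markers of mature oligodendrocytes were higher in median level than those of earlier stages. The median over list members in oligodendrocytes was 105.7 (96-well) and 52.3 RPKM (384-well) for mature markers. It was 5.44 and 6.32 RPKM for newly formed and 0.549 and 0.299 RPKM for precursor markers. Of 19 mature markers found 13 led in both formats, of 13 newly formed markers 2 led (96-well) and 3 (384-well), and of 15 precursor markers 0 led in either. Leading is set against neurons and microglia, so these counts depend on those cells and do not measure stage. Of all genes that passed the filter, 6.24% (96-well) and 8.61% (384-well) led. Only 3 (96-well) and 1 (384-well) of the precursor markers passed the filter. *Ptgds*, the prostaglandin D2 synthase gene of mature cells (chr2:25466709-25470046), was at 683.9 and 656.6 RPKM in the 96-well pools and 398.1, 371.0, 331.6 and 620.2 RPKM in the 384-well pools and above 0 in 84.5 to 97.3% of the nuclei. *Apod*, an apolipoprotein gene, was at 51.3 to 151.5 RPKM and *Grm3*, a metabotropic glutamate receptor gene, at 92.8 to 140.2 RPKM. The mature markers that did not lead were *Klk6*, *Slc5a11*, *Anxa5*, *Pmp22*, *Selenop* and *S100b*. *Klk6*, a protease gene of a mature subset, was above 0 in 4.35 to 12.7% of the nuclei at 1.01 to 7.76 RPKM, and *Selenop*, a selenium carrier gene, was at 13.3 to 80.2 RPKM in oligodendrocytes and 21.2 to 178.1 RPKM in microglia.

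The precursor markers were low throughout. *Pdgfra*, the PDGF receptor alpha gene, was at 0.165, 0.185, 0, 0.0791, 0.0256 and 0.0740 RPKM in pool order and above 0 in 0 to 4.35% of the nuclei, and *Cspg4*, the NG2 gene, at 0.220 to 0.890 RPKM and in 4.35 to 16.4%. *C1ql1* was listed at 0 in oligodendrocytes of every pool. *Pcdh15* was the commonest member, above 0 in 50 to 70.1% of the nuclei at 3.17 to 5.54 RPKM, but neurons had it at 5.49 to 8.91 RPKM. The median log2 ratio to neurons of the list was −2.38 (96-well) and −2.78 (384-well). A nucleus was counted as rich in precursor markers with at least 4 of 8 core genes above 0 after every nucleus of a format was thinned to the same read total, 389202 (96-well) and 30790 (384-well), which left out 2 to 10 oligodendrocytes per pool. This held for 1 of 63 oligodendrocytes (1.59%, exact 95% interval 0.0402 to 8.53) in each 96-well pool. It held for 0 of 64, 0 of 44, 0 of 66 and 0 of 60 in the 384-well pools, where a count of 0 allows a share of up to 4.69%, 6.82%, 4.55% and 5% (3 counts of the total) and the exact 95% upper bounds were 5.6%, 8.04%, 5.44% and 5.96%. Neurons, which express several of these genes themselves, reached 33.3% of 51 and 21.3% of 61 nuclei in the 96-well pools and 4.64% to 5.26% in the 384-well pools, and microglia 0 in every pool. Without thinning, the counts were 3 of 73 and 1 of 71 oligodendrocytes in the 96-well plates and 0 in every 384-well pool. Neurons of the 384-well pools reached 24.9%, 18.0%, 22.2% and 20% without thinning, in pool order. Far fewer of these neurons thus met the rule at the thinned depth, and the bounds above cover counting error only. By a rule chosen after the values were seen, 1 oligodendrocyte nucleus, in the WT pool of the 96-well plates, had *Pdgfra*, *Cspg4* and *Olig1* all above 0, with 694.6 RPKM of *Mbp*. In the *Ehmt1*delta/+ pool of the 96-well plates 2 nuclei labelled neuron had all 3, with means of 341.5 RPKM of *Pdgfra*, 15.9 RPKM of *Mbp* and 16.5 RPKM of *Snap25*.

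Newly formed markers were split. *Bcas1*, a marker of oligodendrocytes early in myelination that mature cells keep (chr2:170346991-170427845), was at 86.01 and 77.2 RPKM in the 96-well pools and 52.95, 60.5, 58.6 and 67.4 RPKM in the 384-well pools and above 0 in 94.2 to 100% of the nuclei. *Enpp6*, a choline phosphodiesterase gene of newly formed cells (chr8:46986887-47096762), was at 15.3 and 14.6 RPKM in the 96-well pools and 8.57, 12.7, 13.5 and 10.1 RPKM in the 384-well pools and above 0 in 30.99 to 41.1%. *Gpr17*, a receptor gene of committed precursors, was at 4.76 and 6.45 RPKM in the 96-well pools and 4.85, 5.18, 7.22 and 8.05 RPKM in the 384-well pools and above 0 in 32.6 to 59.2%, and led in the 384-well plates. *Bmp4* and *Neu4* were above 0 in at most 1.45% and 1.37% of the nuclei of a pool. *Tns3* and *Itpr2*, also listed for this stage, were higher in microglia, at 53.01 to 90.3 RPKM and 36.3 to 56.97 RPKM against 27.2 to 47.2 RPKM and 0.246 to 2.73 RPKM in oligodendrocytes. *Fyn*, a kinase gene of myelin onset, was at 4.72 to 12.9 RPKM in oligodendrocytes and 8.86 to 11.7 RPKM in neurons. Cell cycle genes were near 0, with *Cdk1* listed at 0 in every pool and *Mki67* at 0 to 0.144 RPKM.

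**Figure D3:**
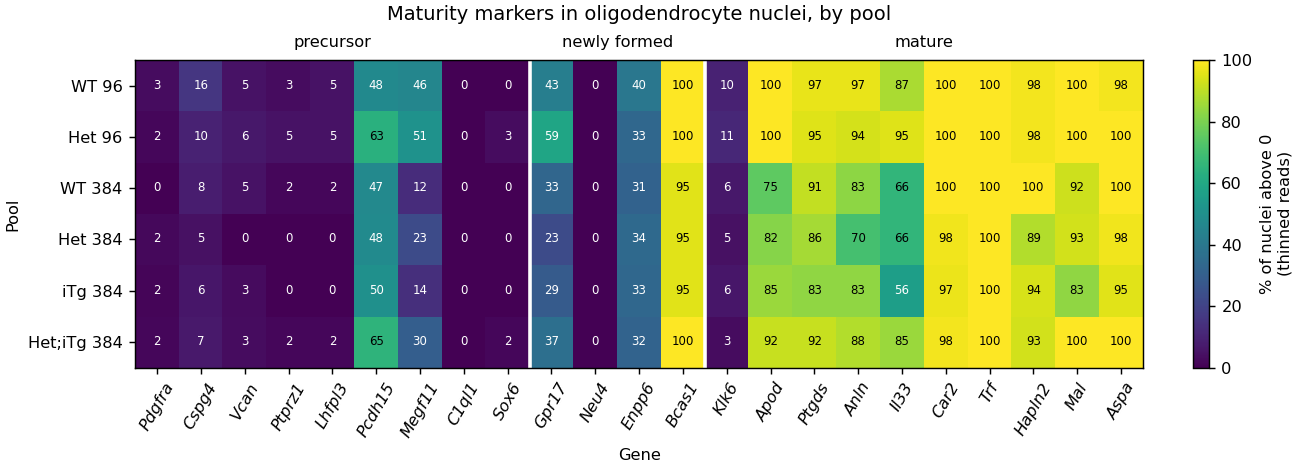
Percent of oligodendrocyte nuclei of each pool (rows, with Het for delta/+) with a value above 0 after thinning to 1 read total per plate format, for precursor, newly formed and mature marker genes (columns). *Trf* and *Car2* are near 100% in every pool, *Gpr17* and *Enpp6* lie between the extremes, and *Pdgfra*, *C1ql1* and *Neu4* are at or near 0.

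The oligodendrocytes were not uniform in *Enpp6* and *Ptgds*. Over the nuclei of each pool *Enpp6* and *Ptgds* ran in opposite directions, with Spearman's rho of −0.65 and −0.49 over the 73 and 71 nuclei of the 96-well pools and −0.59, −0.65, −0.54 and −0.67 over the 69, 46, 71 and 67 nuclei of the 384-well pools. *Ptgds* was at 0 in 32 nuclei, and 30 of these had *Enpp6* above 0, whereas *Enpp6* was above 0 in 30 of 73, 24 of 71, 25 of 69, 15 of 46, 22 of 71 and 23 of 67 nuclei of the pools. By pool the nuclei with *Ptgds* at 0 and *Enpp6* above 0 were 2 of 2, 3 of 3, 6 of 6, 5 of 5, 10 of 11 and 4 of 5 of those with *Ptgds* at 0. The median of *Ptgds* over the nuclei of a pool was 281.003 to 522.8 RPKM and the highest nucleus reached 3015 RPKM, so these nuclei stood far from the bulk. These correlations are a description, chosen after the values were seen. Nuclei of a pool share mice and plates, and the rho of the genes with the read total was −0.0162 to 0.261 for *Enpp6* and −0.115 to 0.0888 for *Ptgds*.

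**Figure D4:**
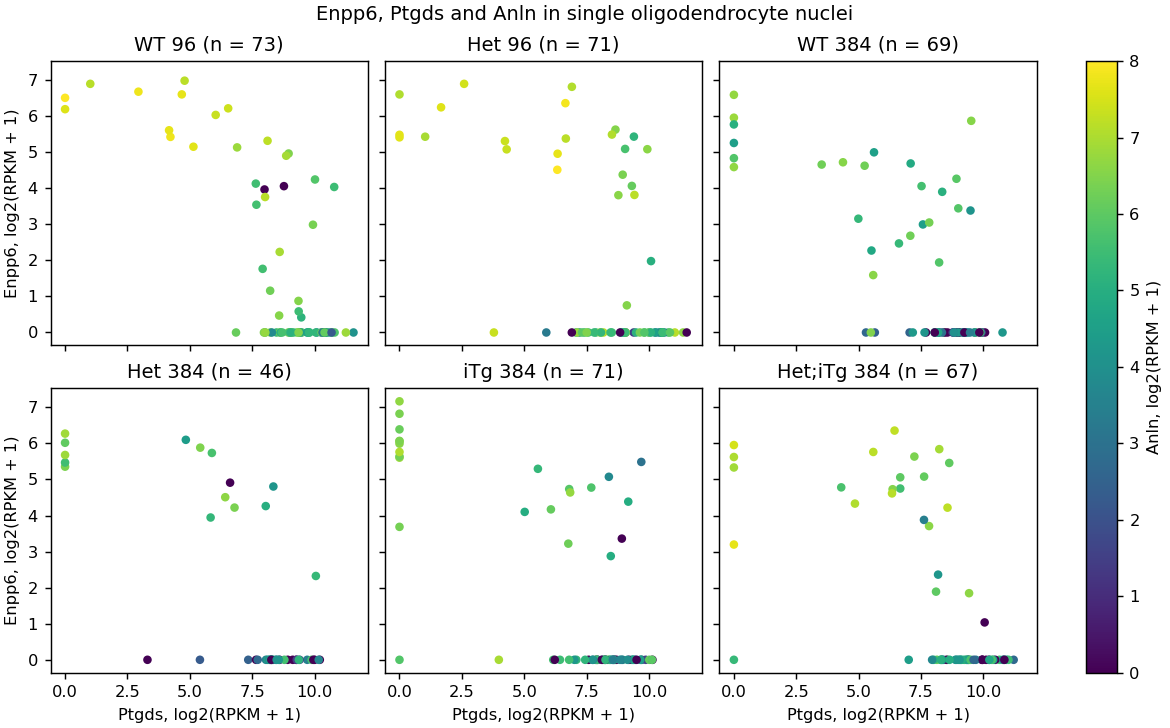
Log2(RPKM + 1) of *Enpp6* against that of *Ptgds* in every oligodendrocyte nucleus, in 1 panel per pool (Het stands for delta/+), coloured by that of *Anln*. Most nuclei have *Enpp6* at 0 and *Ptgds* high, and 30 of the 32 nuclei with *Ptgds* at 0 have *Enpp6* above 0.

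Of 12218 other genes above 0 in at least 5% of oligodendrocyte nuclei of every pool, 27 ran with *Enpp6* at a rho of 0.3 or more in every pool and 10 ran against it at −0.3 or less. The 27 included *Anln*, *Selenop*, *Hapln2* and *Trf* of the mature list. *Anln*, an actin-binding scaffold of myelin septin filaments, had a median rho over pools of 0.645, the transporter gene *Slco3a1* 0.60, the talin gene *Tln2* 0.57, *Selenop* 0.55, *Hapln2* 0.51, the diacylglycerol kinase gene *Dgki* 0.51, and *Trf* 0.39. Those that ran against it were led by *Ptgds*, the kinesin gene *Kif21b* at −0.54 and *Phldb1* at −0.46, and included *Nfasc* at −0.40. *Ptgds* itself had 5 genes with it and 16 against it, *Anln* 21 and 9, and *Hapln2* 13 and 5 by the same limit. Other members of the stage lists had fewer genes past the limit, *Gpr17* with 1 gene with it and 0 against, *Apod* with 2 and 0, and *Opalin*, *Il33*, *Bcas1*, *Mbp* and *Car2* with 0 of either. *Apod*, of the mature list, still ran with *Enpp6* at 0.27 to 0.53 and against *Ptgds* at −0.43 to −0.11 over the pools. *Opalin* ran with *Ptgds* in all 6 pools, at 0.09 to 0.55. Among 44 members of the stage and myelin lists 10 of 946 pairs passed the limit with a positive and 6 with a negative sign. Of these, 4 of the negative pairs held *Ptgds* and the other 2 held *Nfasc*.

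*Cldn11* and *Mal* ran together over the nuclei of the 96-well plates, with rho of 0.86 and 0.77 over 73 and 71 nuclei. In the 384-well pools their rho was 0.05 to 0.65, the highest in the *Ehmt1*delta/+; iTg pool. Nuclei of a pool share mice and plates, and this pair, too, was picked from its values.

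The *Ehmt1*delta/+; iTg pool of the 384-well plates stood apart from the other 384-well pools. Its *Mal* mean of 178.7 RPKM compares with 69.2 to 82.97 RPKM in the others and its *Tspan2* mean of 71.8 RPKM with 30.4 to 31.6 RPKM. Its *Cldn11* mean of 508.1 RPKM compares with 283.4 to 298.4 RPKM, its *Sept7* mean of 120.2 RPKM with 51.8 to 55.5 RPKM and its *Il33* mean of 83.2 RPKM with 29.6 to 38.9 RPKM. In each case it lay towards the 96-well pools. *Mag*, *Hapln2*, *Sox10* and *Tubb4a*, lower in both 96-well pools than in the 384-well pools, were lowest of the 384-well pools in this one. Over the 480 genes leading in both formats, the log2 difference of the 96-well pools from WT and *Ehmt1*delta/+ of the 384-well plates was compared with the difference of *Ehmt1*delta/+; iTg from iTg, so that no pool entered both. The rho across these genes was 0.701, and 88.6% of the genes higher in the 96-well pools were higher in *Ehmt1*delta/+; iTg than in iTg, against 36.8% of the rest. With *Ehmt1*delta/+ in place of iTg the rho was 0.725. The same comparison of *Ehmt1*delta/+ with WT gave −0.0611 and that of iTg with WT −0.122. Neurons showed it as well. Over the genes lower in both formats the rho in neurons was 0.79 and 0.83 for *Ehmt1*delta/+; iTg against iTg and against *Ehmt1*delta/+, and −0.0189 and −0.311 for the other pairs. These contrasts were chosen after the values were seen, genes are not independent replicates and no p is given. The median number of genes above 0 in oligodendrocytes was also highest in this pool, at 5859 against 4586 to 5004, with median reads of 54250 against 49635 to 54877. Genotype, mice and plates of the pool cannot be told apart. Without this pool 547 genes led in the 384-well plates in place of 516.

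To ask what loss of an *Ehmt1* copy changed in oligodendrocytes, log2(pool mean RPKM + 0.1) was fitted with limma with plate format and *CamKII-CreER* as covariates. *Ehmt1* (chr2:24789928-24919614) was checked first. In oligodendrocytes it was at 17.5 and 25.8 RPKM in WT and *Ehmt1*delta/+ of the 96-well plates, 21.8 and 32.6 RPKM in WT and *Ehmt1*delta/+ of the 384-well plates and 20.9 and 28.3 RPKM in iTg and *Ehmt1*delta/+; iTg. Its RNA was thus higher, not lower, in each of the 3 pools labelled delta/+ than in its partner. The fitted log2 difference was 0.53 (SE 0.24), with an adjusted p of 0.898 by limma, so the RNA level over the whole gene did not show the loss of a copy and directions below refer to pools as labelled. Whether the reads come from the deleted exons cannot be read from one value per gene. Neurons of the same pools showed the same order, at 18.7 and 31.2, 19.5 and 31.7, and 20.7 and 33.9 RPKM. For *CamKII-CreER* the log2 difference of *Ehmt1* in oligodendrocytes was −0.13 (SE 0.30) with an adjusted p of 0.961 by limma.

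No gene passed the test for the *Ehmt1* allele, which on simulated data missed most of the smaller changes, so that a count of 0 does not show that the genes did not differ. Of 18104 genes tested with limma and Benjamini-Hochberg adjustment, 0 (0%) were called at 0.05, the lowest adjusted p was 0.898, and 731 (4.04%) had an unadjusted p under 0.05, of which 433 were higher in *Ehmt1*delta/+ pools. *Mbp*, higher in 3 of 3 delta/+ pools than in their partners, differed by 0.23 (SE 0.27, 95% interval −0.52 to 0.97), *Mog* by −0.07 (SE 0.26, −0.79 to 0.65), *Olig1* by 0.26 (SE 0.27, −0.50 to 1.02) and *Sox10* by −0.03 (SE 0.25, −0.73 to 0.67) on the log2 scale, each with an adjusted p of 0.922 to 0.989 by limma. The intervals are wide, and they reach as low as −0.79 (*Mog*) and as high as 1.02 (*Olig1*). Of the 20 myelin protein genes 9 were higher and 0 were called, with a median log2 difference of −0.02, against 0.05 over all genes tested. Of the lineage factors 9 of 14 were higher (median 0.10), and of the 15 cholesterol genes 8 (median 0.04), with 0 called in either list. Only 5 of the 15 precursor markers were tested, of which 4 were higher (median 0.81) and 0 were called. Of these, *Megf11*, at 3.10, 4.87, 0.628, 1.83, 1.15 and 2.38 RPKM in pool order, and *Dscam*, at 1.37, 4.10, 2.61, 5.14, 2.38 and 4.33 RPKM, had an unadjusted p under 0.05 and an adjusted p of 0.898 by limma. Of the 5 reactive genes tested 1 was higher (median −0.30), and of the 12 neuron markers 3 (median −0.32), with 0 called in either list. The genes with the lowest p in oligodendrocytes were low in level. *Prickle3*, a planar polarity gene, was at 0.989 and 4.36 RPKM in WT and *Ehmt1*delta/+ of the 96-well plates, 0.357 and 2.72 RPKM in WT and *Ehmt1*delta/+ of the 384-well plates and 0.366 and 2.53 RPKM in iTg and *Ehmt1*delta/+; iTg, with a log2 difference of 2.39 (SE 0.27) and an adjusted p of 0.898 by limma. *Pdgfc*, a PDGF ligand gene, was at 0.893 and 3.4, 0.354 and 2.01, and 0.193 and 2.56 RPKM in the same pairs. *Tmem132d* had the opposite order, at 3.6 and 1.17, 3.68 and 0.974, and 4.86 and 1.08 RPKM, with a log2 difference of −1.81 (SE 0.26). In all 3 genes the delta/+ pools did not overlap the others, but the genes were picked by their low p, which favours such a separation. How many of all tested genes separate in this way was not counted. *Adgrv1*, *Fcnaos* and *Zfp773* were the others with the lowest p among higher genes, and *Epha10*, *Nudt10*, *Slc25a48* and *B4galt6* among lower ones.

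**Figure D5:**
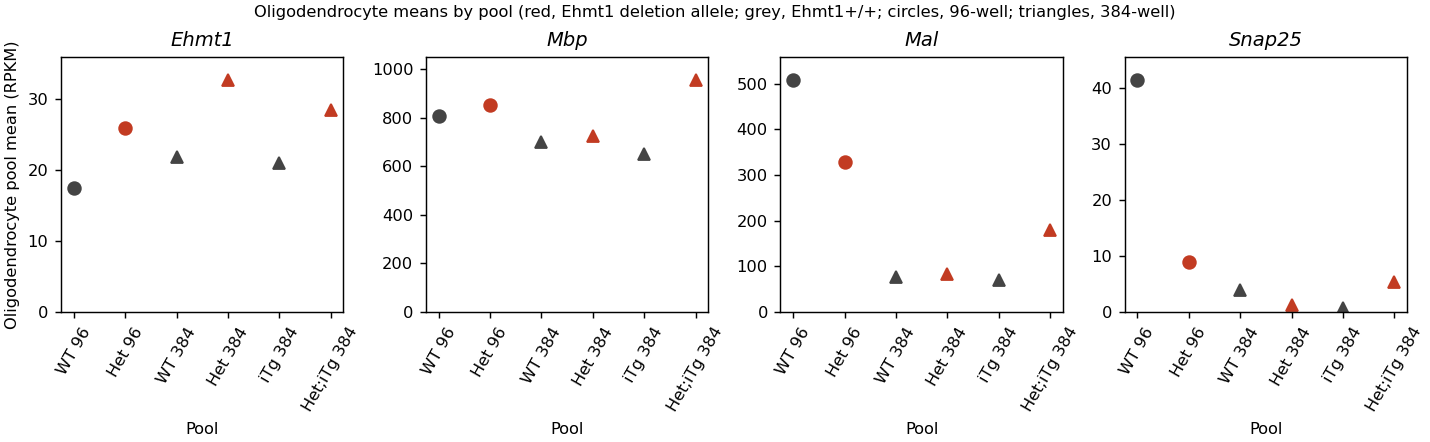
Mean RPKM of the oligodendrocyte nuclei of each pool for *Ehmt1*, *Mbp*, *Mal* and *Snap25*, in red for delta/+ (Het) and grey for +/+ pools, with circles for 96-well and triangles for 384-well plates. *Ehmt1* and *Mbp* lie higher in each delta/+ pool than in its partner, *Mal* is split by plate format, and *Snap25* is highest in the WT pool of the 96-well plates.

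The allele effect was also compared with that in neurons, as the difference of both log2 differences per pool. Of 17290 genes tested with limma 0 (0%) were called, the lowest adjusted p was 0.898, and 768 (4.44%) had an unadjusted p under 0.05. For *Ehmt1* the difference was −0.19 (SE 0.22), with an adjusted p of 0.936 by limma. *Per3*, a circadian clock gene, was among the genes with the lowest p. In oligodendrocytes it was at 7.54 and 2.52 RPKM in WT and *Ehmt1*delta/+ of the 96-well plates, 5.55 and 2.19 RPKM in WT and *Ehmt1*delta/+ of the 384-well plates and 7.59 and 3.06 RPKM in iTg and *Ehmt1*delta/+; iTg, with a difference to the neuron effect of −1.56 (SE 0.22) and an adjusted p of 0.898 by limma. *Zfp454*, a zinc finger gene, had the opposite order, at 1.32 and 4.76, 2.77 and 11.6, and 3.59 and 7.71 RPKM. Others with a low p were *Zfp773*, *Smco1*, *Pdgfc* and *Dpyd* among the higher and *Tmem132d*, *Myo15* and *Cyp46a1* among the lower. For the *CamKII-CreER* transgene, read from the 384-well pools, 0 of 18104 genes (0%) were called in oligodendrocytes by limma, with a lowest adjusted p of 0.237 and 1188 (6.56%) at an unadjusted p under 0.05. On simulated data this fit called none of the changed genes at any size of change tried, so its count of 0 says nothing about the transgene. *Rab26os* was at 1.75 and 3.61 RPKM without and at 0 in both pools with the transgene, with an adjusted p of 0.249 by limma, and *Ifi27l2a*, an interferon-induced gene, was at 0 in both pools without and at 3.16 and 2.05 RPKM with it, with an adjusted p of 0.330 by limma, but at 2.24 and 3.96 RPKM in the 96-well pools, which lack the transgene. *Acads*, *Lxn*, *Prg4* and *Tubb3* were the other higher genes with the lowest p, and *Dhx58*, *Ninj1*, *Diras1* and *Itpr2* the other lower ones.

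Stress genes varied between pools, and of 6 listed genes tested with limma for the allele 0 were called. *Hspa1a* and *Hspa1b*, heat shock protein genes, were at 1.80, 1.62, 2.63, 1.12, 16.9 and 2.14 RPKM and 3.76, 1.61, 4.53, 1.69, 23.7 and 2.63 RPKM in pool order, so the iTg pool stood above the others for both. *Egr1*, an immediate early gene, was at 9.23, 1.94, 0.177, 0.230, 0.0379 and 0.664 RPKM and above 0 in 1.41 to 68.5% of the nuclei, highest in the WT pool of the 96-well plates, which also had the most *Snap25* and *B2m*. Among the other members of the GLP complex, *Ehmt2*, the G9a gene, was at 19.7 and 17.995 RPKM in the 96-well pools and 54.8, 48.3, 53.8 and 36.97 RPKM in the 384-well pools and *Wiz*, their zinc finger partner gene, at 4.14 and 4.503 RPKM in the 96-well pools and 14.5, 8.79, 10.8 and 7.93 RPKM in the 384-well pools. The list had no leading gene in either format, with a median log2 ratio to neurons of −0.14 and −0.10.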

How the data were processed

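Single nuclei of mouse cortex were isolated on an iodixanol gradient and sorted into plates, and libraries were made by RamDA-seq. The authors deposited RPKM values, reads per kilobase of gene scaled to the mapped reads of a nucleus, in 1 table per plate format. The submitters' processing notes name bcl2fastq 1.0, FastQC, HISAT2 2.0.4, Subread 1.5.0 with featureCounts and mm10. RamDA-seq has no molecular identifiers, so reads are not molecules, and strand was not used here. The authors assigned the cell types from UMAP clusters and markers of these nuclei, and no doublet caller was run here.

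Read totals per nucleus were recovered from RPKM and annotated gene lengths by the worth of 1 read. Since 30.8% (96-well) and 26.5% (384-well) of the recovered values were not whole, no count test was run, and the reads served only for depth and thinning (to the lowest 10% of glia in each format). Gene symbols were matched by Ensembl identifier for 52403 of 52636 genes, and coordinates and lengths by identical identifier version. The pool of 3 mice was the sample, as labels tie no nucleus to a mouse. Log2(pool mean RPKM + 0.1) was compared between genotypes with limma 3.58.1 in R 4.3.3. Plate format and *CamKII-CreER* or the *Ehmt1* allele were covariates, which left 2 residual degrees of freedom. Benjamini-Hochberg adjustment was over all genes above 0 in at least 10% of oligodendrocyte nuclei of at least 2 pools. The p-values measure only the spread between pools. Cell types were compared without a test. The fits were checked on simulated data, where those of the allele and of the difference to neurons called most of the largest changes and few of the smaller ones, and that of the transgene called none. Python 3.11.15 with numpy 2.4.6, pandas 2.3.3, SciPy 1.17.1 and matplotlib 3.10.9 was used otherwise.

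Named were the 4 defining markers, the 25 leading and 10 lower genes of best score per format (the text gives values for part of them), the highest and the deviating members of each list, and the 5 genes of lowest p in each direction, passing over predicted genes, pseudogenes and small RNAs. The 21 gene lists, the rules and the members were chosen with earlier results of these data known. Alternatives were other pseudocounts, no filter, an 8-fold limit, pools left out in turn, the nuclei richest in neuron reads left out, thinned or unthinned reads and other limits for precursor markers. Some genes that these rules name are not reported here.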

Additional observations from a re-analysis of the deposited data

Results flagged for a closer look

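Over the 6 pools of oligodendrocyte nuclei, 80 genes were examined for a single pool that lay far from the other 5, and 7 were picked out. The limit was set for about 1 in 20 by chance, or 4 genes. A gene at 0 in 5 pools is picked out at any level in the last pool. That rate therefore does not hold for such genes, and 7 cannot be set against 4. *Bmp4* was at 1.51 RPKM in the WT pool of the 384-well plates and at 0 in the others. *Neu4* was at 0.000999 RPKM in the WT pool of the 96-well plates and at 0 in the others. *Frmd4a*, a scaffold gene listed for newly formed cells, was at 1.82 RPKM in the *Ehmt1*delta/+; iTg pool and at 2.64 to 2.99 RPKM in the others. *Plxna4os2* was at 0.109 RPKM in the same pool and at 0 in the others. *Adamts10* was at 0.0630 RPKM in the WT pool of the 384-well plates and at 0 to 0.00441 RPKM in the others. *Plxna4os3* was at 0.179 RPKM in the WT pool of the 96-well plates and at 0 to 0.0321 RPKM in the others. *Lrp1* was at 0.320 RPKM in the *Ehmt1*delta/+ pool of the 384-well plates and at 1.30 to 1.73 RPKM in the others. Most of these levels are near 0 and rest on few nuclei.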

How the results depend on the processing

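The number of genes called by limma was 0 for the allele, the transgene and the difference to neurons and in all 43 alternatives to these fits, which says nothing of stability, since on simulated data the fit of the transgene called none of the changed genes and the others missed most of the smaller changes. Counts of leading and lower genes are given as percent of the 52636 genes of the tables, where leading genes were 1.53% (96-well) and 0.980% (384-well) and lower genes 0.942% and 0.427%. With an 8-fold limit, leading genes came to 0.920% and 0.614% and lower genes to 0.429% and 0.260%. Lower genes came to 0.393% and 0.241% with a pseudocount of 1 RPKM and to 1.82% and 0.866% without the filter on nuclei above 0, where leading genes came to 1.91% and 1.36%. With 1 pool left out, which leaves 1 pool of this format, 1.28% to 1.46% of genes were lower in 96-well plates, the highest without WT. These changes follow from the looser or stricter rules and the fewer pools. The share of oligodendrocytes rich in precursor markers was 12.7% in WT and 11.1% in *Ehmt1*delta/+ of 96-well plates with at least 3 of 8 genes and 0% in both with at least 5 of 8. In *Ehmt1*delta/+; iTg it was 5% with at least 3 of 8, and 0% in the other 384-well pools. By plate code, the share of oligodendrocytes was as low as 15.4% in WT and 14.9% in *Ehmt1*delta/+ of the 96-well format. The log2 difference of *Sox10* for the allele turned to 0.0597 in the fit of the 4 WT and *Ehmt1*delta/+ pools with plate format as a block, and was −0.120 to 0.0597 with 1 pool left out. That of *Mog* was −0.187 to 0.0475 with 1 pool left out, above 0 without either 96-well pool. Neither gene was called, and the cause was not tested. Of 503 log2 differences of named genes under the alternatives, 498 kept their direction and their side of the threshold. Of 756 scores of leading and lower genes 240 moved by more than the spread between pools and 0 turned, and of 36 counts of such genes 9 moved by more than 1.5 times. Depth limits the 384-well pools, where a gene at 0 in a nucleus may have been missed. No paired analysis was possible because the labels give pools no replicate number, beyond the fit of the allele itself, whose terms for plate format and *CamKII-CreER* set each delta/+ pool against its partner in 3 pairs. Leaving out 1 pool therefore takes its partner out of the comparison too.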
